A study of Mus musculus with 35 samples.

Results

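The genes described here encode the proteins of the cytosolic ribosome. They were chosen by symbol: every gene whose symbol in the platform table is Rpl or Rps followed by a digit, plus Rplp0, Rplp1, Rplp2 and Rpsa, without the Rps6k kinases and without pseudogene symbols. Of 81 matching symbols, 50 had a probe set (the group of short probes that reads one transcript) listing that symbol and no other, and these 50 genes are the members, of 18193 genes tested in all. The other 31 symbols stood only on probe sets that list several genes. The members comprise 22 genes of the large subunit, 21 of the small subunit, 6 paralogs (Rpl3l, Rpl7l1, Rpl22l1, Rpl39l, Rps4l and Rps27l) and Rps19bp1. Rps19bp1 matches the symbol rule but encodes a protein that binds Rps19, not a ribosomal subunit.

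Liver RNA of male CB6F1 mice, an F1 hybrid strain, was measured on 35 Affymetrix moe430_2 arrays in 14 groups. Young mice were 5 to 6 months old and came from Jackson Laboratories. Old mice were 25 to 27 months old and came from the National Institute on Aging, so age and supplier cannot be told apart. Each age had 3 arrays of untreated livers (0 h) and, at 24, 38 and 48 h, 3 arrays each of partial hepatectomy (PH), in which 70% of the liver is cut away. Sham operations, in which the liver was handled but left whole, gave 2, 1 and 2 arrays in young mice and 2, 2 and 2 in old mice at these times. Surgery was done under avertin and isoflurane. Since nothing in the labels states that replicates come from different mice, the spread behind the p-values may be technical.

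A ribosome is built from ribosomal RNA and about one copy each of a large set of proteins, which join the small subunit (Rps genes) or the large subunit (Rpl genes). The proteins are made in matched amounts, and their mRNAs typically begin with a run of C and T bases, the 5′ terminal oligopyrimidine (TOP) tract, through which mTOR signalling and LARP1 control their translation. After PH the remaining hepatocytes enlarge and divide, and ribosome production is a well known part of this growth.

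To show the TOP tract in the genes that carry the findings, 30 bases around the annotated start were read from RefSeq promoter sequences (mouse build GRCm38.p6). Promoter entries were found for 44 of the 50 members, with 52 windows because some genes have several starts. The tract was searched as a C at the first transcribed base followed by at least 4 bases that are C or T, on the transcribed strand. It was present in 8 of 52 member windows (15.4%) and in 823 of all 32851 windows (2.51%). The 8 windows with a tract follow, each with 10 bases before the start and 20 from the start, and with the tract in capitals. All are written 5′ to 3′ on the transcribed strand.
Rpl14, chr9:120571507-120571536, plus strand: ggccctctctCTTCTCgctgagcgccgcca
Rpl35, chr2:39005112-39005141, minus strand: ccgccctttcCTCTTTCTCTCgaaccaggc
Rpl38, chr11:114668570-114668599, plus strand: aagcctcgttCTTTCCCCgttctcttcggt
Rplp2, chr7:141447641-141447670, plus strand: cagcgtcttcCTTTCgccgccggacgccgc
Rps6, chr4:86857348-86857377, minus strand: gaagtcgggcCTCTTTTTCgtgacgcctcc
Rps10, chr17:27635225-27635254, minus strand: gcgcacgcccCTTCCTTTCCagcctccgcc
Rps18, chr17:33955646-33955675, minus strand: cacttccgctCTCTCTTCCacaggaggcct
Rps27, chr3:90213629-90213658, minus strand: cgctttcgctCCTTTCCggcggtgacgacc
The next 5 windows, of members with large rises and of Rplp0, a widely used reference gene, hold no tract at the annotated start.
Rpl22l1, chr3:28805498-28805527, plus strand: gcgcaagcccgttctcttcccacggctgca
Rpl12, chr2:32961702-32961731, plus strand: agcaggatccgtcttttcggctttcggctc
Rpl41, chr10:128549149-128549178, minus strand: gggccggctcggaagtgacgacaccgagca
Rplp0, chr5:115559457-115559486, plus strand: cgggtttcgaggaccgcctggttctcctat
Rpsa, chr9:120127756-120127785, plus strand: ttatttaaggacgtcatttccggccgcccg
The listed start coincided with the boundary of the gene in the RefSeq gene table for 37 of the 44 members, and an annotated start can lie some bases away from the one used in liver. Over the whole 300-base windows, CCGGAAG, the core of an ETS factor site, was found on either strand in 21 of 52 member windows (40.4%) and in 8.86% of all windows. CACGTG, the E-box that MYC can bind and a palindrome on both strands, was found in 5 of 52 (9.62%) and in 7.15% of all. These matches describe the letters and are not evidence of binding.

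The values are log2 signals from RMA, which corrects background, equalises the arrays and summarises each probe set. Alb, the main plasma protein of hepatocytes, lay between 14.80 and 14.94 on all 35 arrays, and Ttr and Apoa1, also secreted by hepatocytes, between 14.49 and 14.85. Cps1, the first enzyme of the urea cycle in hepatocytes, ran from 12.39 to 14.25 (median 13.94). Pairs of arrays had correlations across genes between 0.922 and 0.997, and 2 arrays, old PH 24 h replicate 1 and old PH 38 h replicate 3, had the lowest median correlation with their own group (0.965 and 0.946). The other old PH arrays at 24 and 38 h were also low, from 0.969 to 0.980, against a median of 0.9925 over the arrays. The control probe set for the middle of 18S ribosomal RNA was brighter in the untreated arrays (8.61 to 12.81 in young and 11.87 to 12.58 in old mice) than in most sham arrays (7.07 to 10.22 and 7.72 to 8.36) and PH arrays (7.03 to 10.34 and 7.03 to 10.40). Of the marker lists for other liver cells, the summed linear signal of 3 neutrophil genes ranged from 659 to 1140 in young sham and from 776 to 3764 in young PH arrays, and from 748 to 1260 and 851 to 5039 in old ones. In PH against sham 0 of 3 passed in young and 1 of 3 in old mice. The sum of 2 adipose genes was 211 to 269 in young sham and 566 to 6570 in young PH arrays, and 229 to 1651 and 585 to 5685 in old ones. For 5 Kupffer cell genes the sums were 3704 to 5831 and 4353 to 7217 in young sham and PH arrays and 5379 to 9047 and 1662 to 6704 in old ones. Their part in the results was not tested. In whole-liver RNA, fewer cells of a type and less RNA per cell cannot be told apart.

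The members stood among the brightest probe sets of the array. Of the 50, 37 had a mean of 11 or more over all arrays, against a median of 8.07 over all genes, and 14 lay above the 99th percentile. The other 13 were read by dim probe sets. For 9 members a probe set that lists several genes was brighter than the one used by over 2 log2 units (Rpl12, Rpl14, Rpl27a, Rpl37, Rpl39, Rps6, Rps16, Rps25 and Rps27), so the probe set used for these was not the brightest that lists the gene. Many members have close pseudogene copies, and 14 chosen probe sets carry the suffix x and 2 the suffix s, which mark probes that can match other genes. Values of single members are uncertain in this respect. A further 16 carry the suffix a, for probes shared by several transcripts.

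As a summary of the members, the mean log2 difference of the 50 genes from the untreated livers of the same age was taken on each array. Young livers taken 24 h after PH gave 0.31 ± 0.03 (SD, n = 3), those taken at 38 h gave 0.27 ± 0.03 and those at 48 h gave 0.38 ± 0.04. Young sham arrays gave 0.12 and 0.16 at 24 h, -0.08 on the single array at 38 h and 0.03 on both arrays at 48 h. The 9 young PH arrays, from 0.24 to 0.42, therefore all lay above the 5 sham arrays and above the untreated arrays, which spread from -0.08 to 0.11. Old PH livers gave 0.29 ± 0.11 at 24 h, 0.22 ± 0.14 at 38 h and 0.17 ± 0.05 at 48 h, and the 6 old sham arrays ran from -0.07 to 0.12. The old ranges overlapped at 1 array, since the lowest PH array, at 38 h, stood at 0.11 and the highest sham array at 0.12. The highest old PH arrays, 0.40 at 24 h and 0.38 at 38 h, were the 2 arrays that stood apart from their groups.

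**Figure D1:**
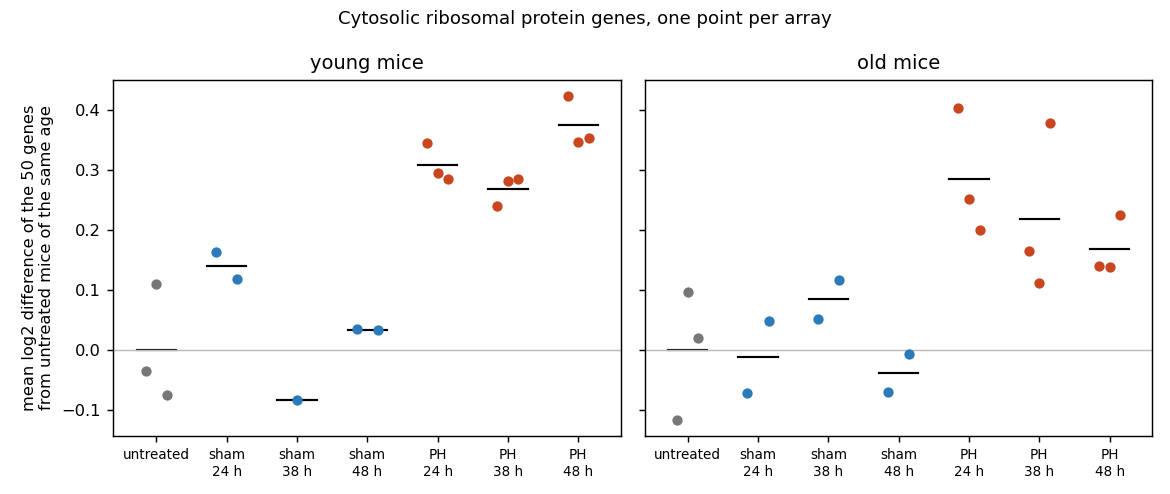
Mean log2 difference of the 50 ribosomal protein genes from the untreated livers of the same age (y axis), for every array (points) by group (x axis), in young (left) and old mice (right); black bars are group means. All 9 young PH arrays, between 0.24 and 0.42, lie above every sham and untreated array, and the old PH arrays spread from 0.11 to 0.40.

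PH was compared with sham surgery, which separates resection from the operation itself, with the difference averaged over the 3 times with equal weight. In young livers 38 of 50 members rose and 0 fell, with a median log2 difference of 0.29 over all 50, which is a modest shift. In old livers 32 rose and 0 fell, with a median of 0.19. A call is an adjusted p under 0.05 from limma with Benjamini-Hochberg adjustment over all 18193 genes, of which 15.2% were called higher and 12.9% lower in young mice, and 16.4% and 13.4% in old mice. Across all genes the median difference was -0.04 in young and -0.02 in old livers. The 722 genes with a mean of at least 12, which resemble the members in brightness, include 35 of the members themselves. Of these 722 genes, 168 were called higher and 109 lower in young mice (median 0.01). In old mice 146 were called higher and 233 lower (median -0.09). The calls of the 35 members are part of these counts, so the set is not a separate background. Every PH array lay above every sham array for 23 members in young mice, against 7.6% of all genes, and for 5 in old mice, against 3.06%.

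These counts rest on the probe sets and arrays to differing degrees. With probe sets without a suffix, which leaves 27 members, 14 were called higher and 3 lower in young mice and 11 higher in old mice. With the mean of all probe sets of a gene the counts were 35 higher in young mice, and 31 higher and 1 lower in old mice. Fitted on the arrays of the groups compared alone, the old count was 15. With both outlying old PH arrays removed it was 24, and with 38 h left out the young count was 31 higher and 1 lower. Centring each array on its median lowered the share of calls that were higher among all genes from 54.0% to 42.8% in young and did not turn any member call to lower.

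Genes of both subunits rose, and the difference between the subunits was not tested. Of 22 large subunit genes 19 rose in young and 17 in old mice (medians 0.32 and 0.21), and of 21 small subunit genes 14 and 12 (medians 0.27 and 0.18). Among the members with a mean of 11 or more, all 35 subunit genes had positive differences at both ages. In young mice those of the large subunit ran from 0.14 to 0.51 and those of the small subunit from 0.09 to 0.47.

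Rplp0 and Rplp2 encode proteins of the P stalk, the flexible arm of the large subunit that recruits the elongation factors. Rplp0 was 12.98, 12.99, 13.02, 13.15 and 13.30 in the 5 young sham arrays and 13.39 to 13.48 (median 13.45) in the 9 PH arrays, with no overlap. The log2 difference was 0.37 ± 0.06 (SE), a fold of 1.29, with an adjusted p of 9.72e-05 in limma. In old mice Rplp0 ran from 13.02 to 13.32 (median 13.17, 6 arrays) after sham and from 13.29 to 13.73 (median 13.42, 9 arrays) after PH. These ranges overlapped at their edges, and Rplp0 rose by 0.29 ± 0.06 (limma adjusted p = 0.000418). Rplp2 rose by 0.37 ± 0.06 in young (adjusted p = 7.91e-05) and 0.33 ± 0.06 in old mice (adjusted p = 0.000126, both limma).

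Rpsa is a protein of the small subunit that also serves at the cell surface as a laminin receptor. In young mice it was 12.50 in the single sham array at 38 h and 12.80 to 13.10 in the other 4, against 13.08 to 13.37 (median 13.29) after PH. In old mice it was 12.57 to 13.07 (median 12.78) after sham and 13.01 to 13.67 (median 13.23) after PH. At each age the lowest PH array reached into the top of the sham range. Rpsa rose by 0.47 ± 0.08 in young (limma adjusted p = 5.64e-05) and by 0.49 ± 0.07 in old mice (adjusted p = 1.19e-05, limma), and by 0.41 in old mice without the 2 arrays that stand apart. Its other probe set, dim with a mean of 4.97, gave 0.03 and 0.05, and the mean of both rose by 0.25 and 0.27.

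Rpl41, the smallest protein of the ribosome, and Rpl35, a protein near the exit of the nascent chain, rose by similar amounts. Rpl41 was 13.69 to 13.84 in young sham arrays and 13.98 to 14.38 in PH arrays, and 13.61 to 13.85 and 14.08 to 14.37 in old ones, with no overlap at either age. It rose by 0.46 ± 0.08 in young and 0.47 ± 0.07 in old mice (limma adjusted p = 0.000107 and 3.53e-05). The other bright probe set of Rpl41, with a mean of 13.78, gave 0.27 and 0.24, and the dim ones gave 0.17 and 0.14 (mean 7.29) and 0.25 and 0.09 (mean 5.90). The last of these, the one without a suffix, did not pass in old mice. Rpl35 was 12.32 to 12.61 in young sham arrays and 12.82 to 13.07 after PH, again without overlap. It rose by 0.51 ± 0.08 in young and 0.39 ± 0.07 in old mice (limma adjusted p = 3.24e-05 and 0.000206). The other 4 bright probe sets of Rpl35 gave 0.45 to 0.54 in young mice, while a dim one, with a mean of 6.74, gave -0.26.

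In young mice the widest differences were in Rpl22l1, Rpl14 and Rpl12. Rpl22l1, the paralog of Rpl22 that can take its place in the large subunit, was 11.77 on both young sham arrays at 24 h, 10.56 at 38 h and 11.17 and 11.27 at 48 h. After PH it lay between 11.86 and 12.34 on all 9 young arrays, above every sham array. It rose by 0.93 ± 0.10 in young mice, a fold of 1.91 (limma adjusted p = 1.64e-07). In old mice it ran from 10.83 to 11.95 (median 11.33) after sham and from 11.82 to 12.36 (median 12.14) after PH, with an overlap, and rose by 0.70 ± 0.09, a fold of 1.62 (limma adjusted p = 3.45e-06). Rpl22 itself rose by 0.27 ± 0.07 in young mice (limma adjusted p = 0.00691), and its value in old mice was 0.17 ± 0.06 (adjusted p = 0.0521, limma). Its 3 probe sets disagreed. The one with a mean of 11.27 gave 0.29 and 0.06, and the one with a mean of 9.18 gave -0.47 ± 0.18 in young (adjusted p = 0.0579) and -1.08 ± 0.16 in old mice (adjusted p = 3.9e-05, both limma over all probe sets).

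Rpl14 and Rpl12, both of the large subunit, were read by dim probe sets. Rpl14 was 5.70 to 6.23 in the 5 young sham arrays and 6.57 to 7.02 in the 9 PH arrays, and rose by 0.83 ± 0.12 (limma adjusted p = 1.21e-05). In old mice its sham arrays ran from 5.97 to 6.40 and its PH arrays from 5.99 to 6.75. These overlap, and the rise was 0.33 ± 0.11 (limma adjusted p = 0.0242), a call lost without replicate 1 of the old sham arrays at 24, 38 or 48 h. Rpl12 rose by 0.73 ± 0.13 in young mice (limma adjusted p = 0.000179), although one young PH array at 38 h, at 7.25, lay below all sham arrays. In old mice it was 7.18 to 7.60 after sham and 7.91 to 8.59 after PH, and rose by 0.75 ± 0.12 (limma adjusted p = 4.94e-05).

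**Figure D2:**
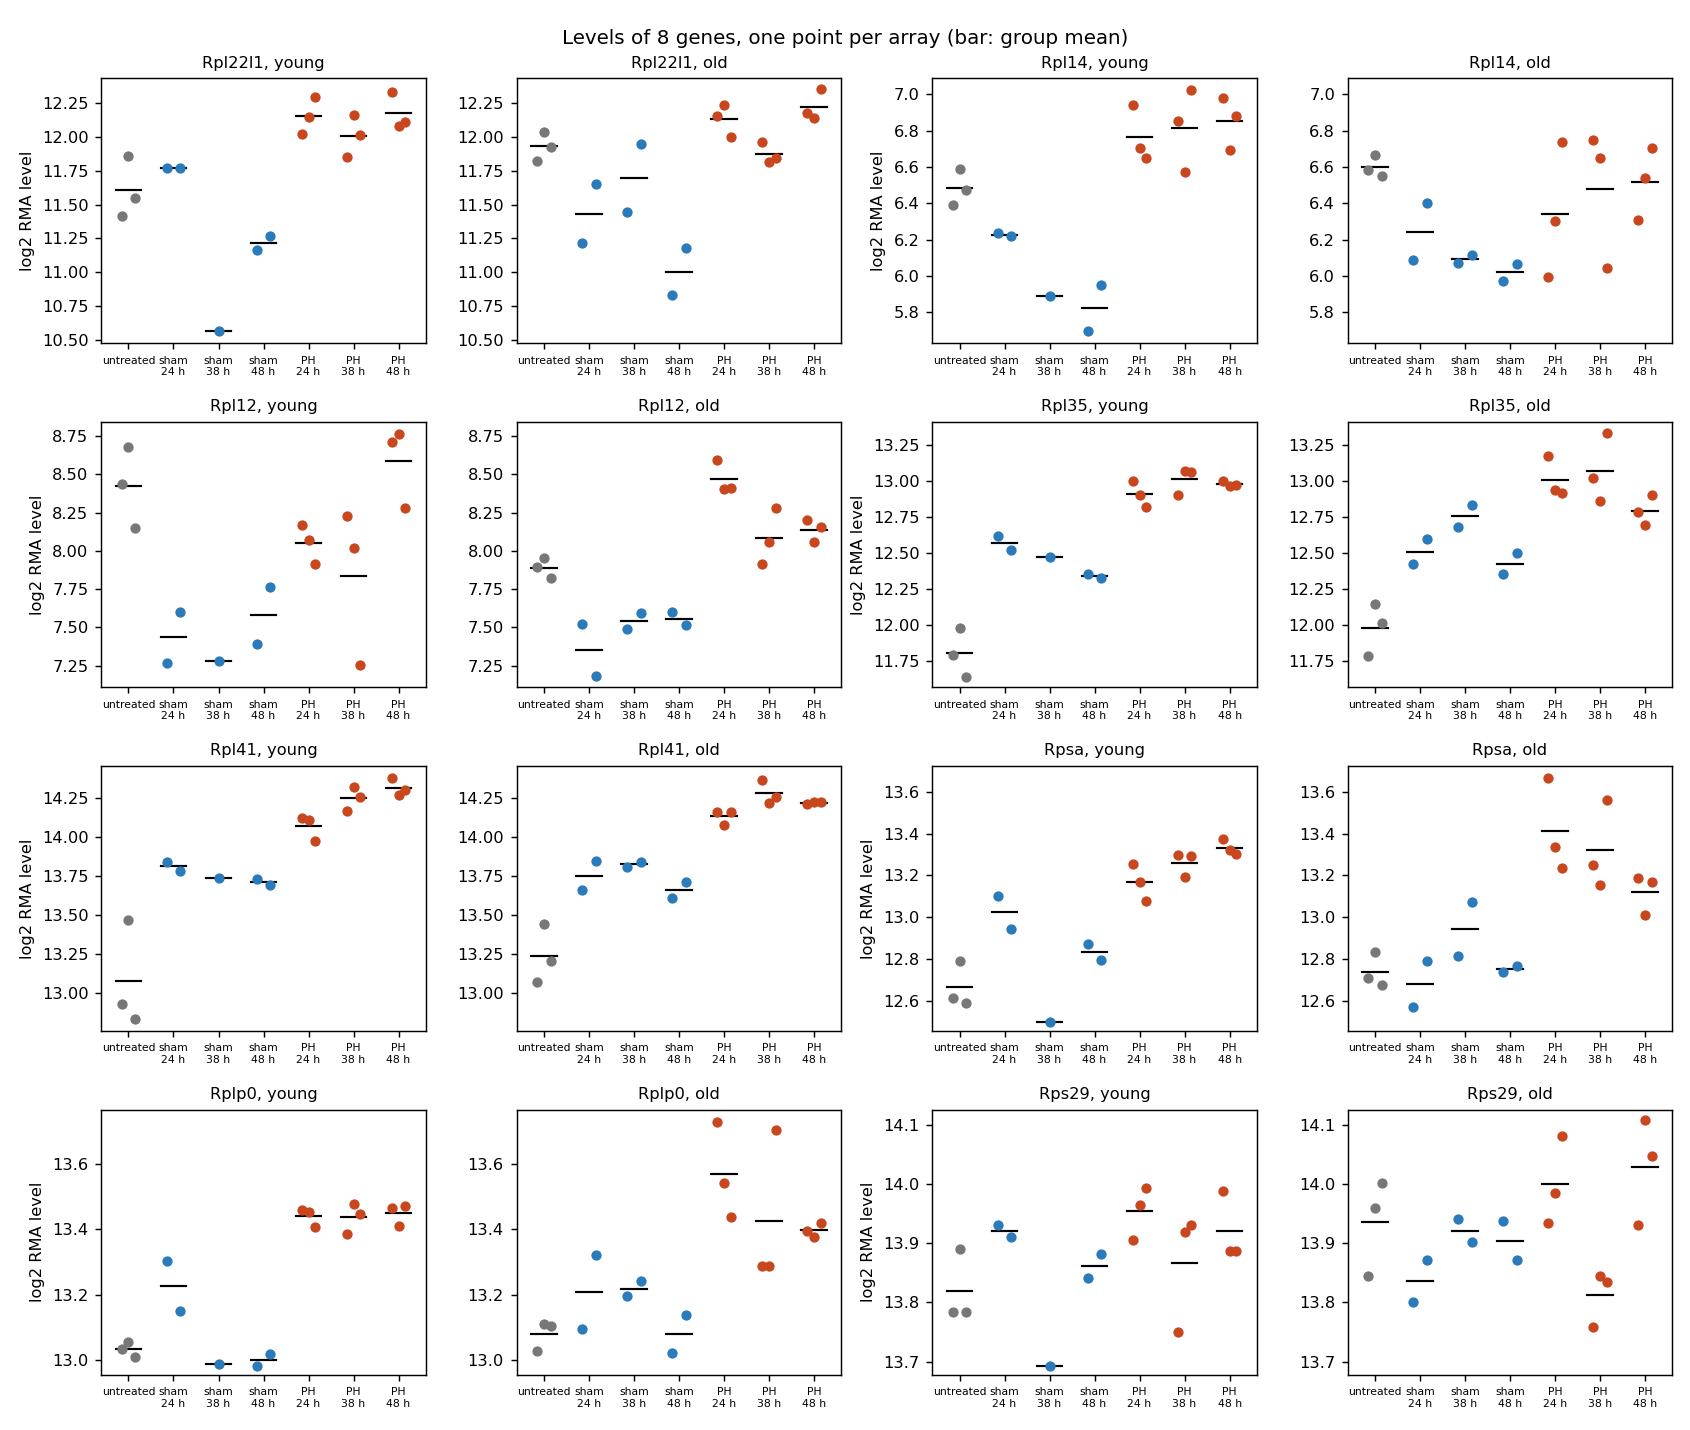
Log2 RMA level (y axis) of 8 members on every array (points) by group (x axis), untreated in grey, sham in blue and PH in red, with group means as bars; each gene has 1 panel per age on a shared scale. Rpl35 and Rpl41 step up from untreated to sham and again to PH, Rpl14 and Rpl12 are lower after sham than in untreated livers, and Rps29 stays between 13.69 and 14.11 throughout.

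Other members rose by smaller amounts. In young mice these included Rps19, the gene most often mutated in Diamond-Blackfan anaemia (0.43 ± 0.09, limma adjusted p = 0.00055), Rpl10a (0.37 ± 0.07), Rpl4 (0.34 ± 0.05), Rps10 (0.34 ± 0.06) and Rpl11 (0.33 ± 0.07), a protein that binds Mdm2 when ribosome assembly fails. In old mice the same genes stood at 0.27 ± 0.08, 0.26 ± 0.06, 0.19 ± 0.05, 0.22 ± 0.05 and 0.17 ± 0.06, each past the threshold. The old call of Rpl11 held in 7 of 15 fits that left out 1 array. It was lost without old sham 24 h replicate 1, either old sham array at 38 or 48 h, old PH 24 h replicate 1, old PH 38 h replicate 3 or old PH 48 h replicate 3. The old call of Rps19 was lost without old sham 24 h replicate 1 (limma adjusted p = 0.0506). Rps3, at the mRNA entry of the small subunit, rose by 0.30 ± 0.07 in young and 0.24 ± 0.07 in old mice. Its dimmer probe sets disagreed. The one with a mean of 9.16 gave -0.27 ± 0.10 in young (adjusted p = 0.0463, limma over all probe sets) and 0.02 ± 0.09 in old mice. The one with a mean of 8.06 gave 0.40 ± 0.19 and 0.43 ± 0.17 and passed at neither age. Rps6, the subunit protein phosphorylated by S6 kinase, rose by 0.34 ± 0.06 and 0.18 ± 0.05 on a dim probe set.

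On the probe sets used, a group of 11 members passed in neither age. It held bright probe sets, among them Rps29 (0.09 ± 0.05 in young and 0.06 ± 0.04 in old mice), Rps14 (0.15 ± 0.10 and 0.13 ± 0.09), Rps18 (0.19 ± 0.07 and 0.07 ± 0.07), Rpl7 (0.14 ± 0.06 and 0.04 ± 0.05) and Rps3a1 (0.19 ± 0.08 and 0.17 ± 0.07). All of these values are positive, and not passing does not show that the level was the same. Rps29 was 13.69 to 13.93 in young sham arrays and 13.75 to 13.99 in young PH arrays, ranges that overlap almost wholly. The others were Rpl37, Rps27, Rpl27a, Rps16, Rpl3l, the muscle paralog of Rpl3, and Rpl39l, the germ-line paralog of Rpl39. Their values ran from -0.15 to 0.21 at both ages together. Other bright probe sets of Rps29 and Rps18 did pass in limma over all probe sets. For Rps29, those with means of 13.89 and 13.80 gave 0.15 and 0.17 in young mice (adjusted p = 0.0381 and 0.022). Only the first passed in old mice (0.16, adjusted p = 0.02). For Rps18, those with means of 13.29 and 12.57 gave 0.24 and 0.27 in young mice (adjusted p = 0.0285 and 0.026). Neither passed in old mice.

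Of the 8 members with a TOP tract at the annotated start, 6 rose at each age, with a median of 0.34 in young and 0.21 in old mice. Among the 36 members with a window and no tract, 29 rose in young and 23 in old mice, with medians of 0.29 and 0.19. The tract was found on members with large rises (Rpl14 and Rpl35). It was also found on members that did not pass on the probe set used (Rps18 and Rps27). The difference between members with and without a tract was not tested.

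Most calls were made at both ages. Of the 38 calls in young mice 31 (81.6%) were also called in old mice, and these make up 96.9% of the 32 old calls. Among all genes 28.1% were called in young and 29.8% in old mice. Their overlap is not given here, so the overlap of the members is not shown to be particular to them. The correlation of the differences across the 50 members was 0.86, a description over genes that share their arrays. The young value was the higher one for 41 of the 50. The age difference of these means was not tested. Rps25 went the other way, with 0.26 ± 0.12 in young mice (adjusted p = 0.0956, limma) and a rise of 0.49 ± 0.11 in old mice (adjusted p = 0.0014, limma).

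**Figure D3:**
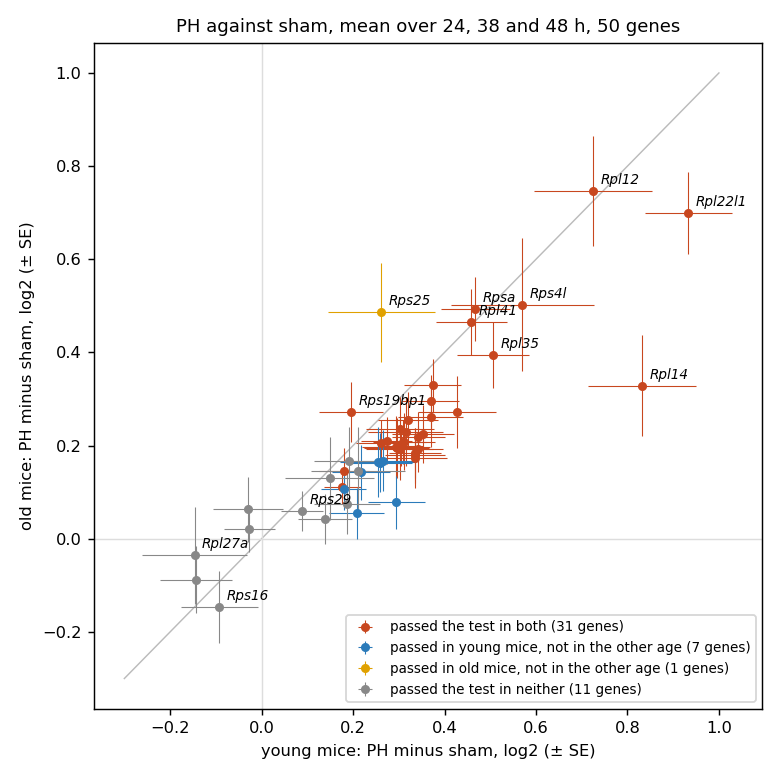
Log2 difference of PH from sham, averaged over 24, 38 and 48 h, in young mice (x axis) and old mice (y axis) for the 50 genes, with standard errors as lines and colours for the ages in which a gene passed the test; the grey diagonal marks equal values. Most genes lie between 0.1 and 0.5 and below the diagonal, with Rpl22l1, Rpl12 and Rpl14 farthest out.

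PH was also compared with sham at each single time, and differences between the times were not tested. At 24 h 0 of 50 members passed in young mice, with a median difference of 0.19, while 107 of all genes (0.588%) were called higher and 0.121% lower. At an unadjusted p under 0.05 there were 17 members, against 12.7% of all genes. At 38 h 12 rose, with a median of 0.33, against 4.6% of all genes called higher and 1.47% lower. At 48 h 30 rose, with a median of 0.35, against 11.1% and 7.3%. Rpl22l1 rose by 1.45 ± 0.19 at 38 h and 0.96 ± 0.15 at 48 h, Rpl14 by 0.93 ± 0.24 and 1.03 ± 0.19, and Rpsa by 0.76 ± 0.15 and 0.50 ± 0.12.

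The 38 h comparison in young mice rests on 1 sham array, which was the lowest of the 14 group means for 25 of the 50 members. Its spread was assumed to be that of the other groups. The 38 h count was 5 without young PH 38 h replicate 3, which also ended the call of Rpl14 (0.82), and 7 and 6 with other scalings. It was 2 from the groups compared alone and 23 without the 2 old arrays that stand apart, which enter through the shared variance. The 48 h count was 17 without young sham 48 h replicate 1 and 15 without replicate 2.

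In old livers 18 members rose at 24 h, with a median of 0.27, against 7.51% of all genes called higher and 3.8% lower. Rpl12 rose by 1.12 ± 0.20, Rps4l by 0.88 ± 0.25, Rps25 by 0.75 ± 0.19, Rpsa by 0.73 ± 0.12 and Rpl22l1 by 0.70 ± 0.15. At 38 h 1 member rose, Rpl41 (0.46 ± 0.12), with a median over the members of 0.11, against 2.3% and 2.49%. At 48 h 9 rose, with a median of 0.20, against 8.46% and 6.56%, led by Rpl22l1 at 1.22 ± 0.15 and Rpl41 at 0.56 ± 0.12.

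These old counts depend on single arrays. At 24 h the count was 3 and 8 without old sham replicate 1 or 2, 4 and 11 without old PH replicate 1 or 2, and 0 from the groups compared alone. The 24 h call of Rps4l was lost without old sham replicate 1 or 2 or old PH replicate 1, that of Rps25 without old sham replicate 2 or old PH replicate 1, and that of Rpl22l1 without old sham replicate 1. At 38 h the count was 0 without either sham array or without PH replicate 1 or 3, and 4 without PH replicate 2. At 48 h it lay between 1 and 4 without any single one of the 5 arrays (old sham replicates 1 and 2, old PH replicates 1 to 3), and the call of Rpl41 was lost without old sham 48 h replicate 1. The order of the times also changed: the counts at 24, 38 and 48 h were 0, 0 and 14 from the groups compared alone, and 10, 2 and 16 without the 2 arrays that stand apart. Among all genes, centring each array on its median moved the share of calls that were higher from 82.9% to 72.3% at 24 h and from 75.8% to 60.1% at 38 h in young mice, and from 48.0% to 32.6% at 38 h in old mice. Repeated quantile normalization moved it from 66.4% to 54.7% at 24 h in old mice.

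PH was also set against the untreated livers, a comparison that includes the operation itself. In young mice 29 members rose and 0 fell at 24 h, 29 rose and 3 fell at 38 h, and 33 rose and 0 fell at 48 h. All genes were called higher and lower at 7.82% and 9.56%, 15.2% and 16.5%, and 13.4% and 14.5%. In old mice 23 rose and 1 fell at 24 h (11.7% and 12.6% of all genes), 21 and 1 at 38 h (21.9% and 16.6%), and 10 and 1 at 48 h (8.28% and 8.62%). The old count of either direction was 12 at 24 h without old untreated replicate 1 and 14 without old PH 24 h replicate 1. It was 11 at 38 h without untreated replicate 1 and 13 without PH replicate 3, and 5 at 48 h without untreated replicate 1. Repeated quantile normalization moved the share of higher calls among all genes from 45.0% to 59.4% at 24 h and from 48.0% to 60.4% at 38 h in young mice. The 18S signal, high in the untreated arrays, moves with this comparison and its part was not tested.

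Rpl35 and Rpl41 had the largest differences from untreated livers at every time and age on the probe sets used. Rpl35 was 11.79, 11.98 and 11.64 in the 3 young untreated arrays and 12.82 to 13.07 in the 9 young PH arrays. It rose by 1.10 ± 0.11 at 24 h, 1.21 ± 0.11 at 38 h and 1.17 ± 0.11 at 48 h, and in old mice by 1.03 ± 0.11, 1.09 ± 0.11 and 0.81 ± 0.11. Rpl41 was 12.93, 13.47 and 12.84 untreated and 13.98 to 14.38 after PH in young mice, and rose by 0.99 to 1.24 there and by 0.90 to 1.04 in old mice. Rpl13a, a large subunit protein that can also leave the ribosome to silence inflammatory mRNAs, rose by 0.69 ± 0.10, 0.59 ± 0.10 and 0.70 ± 0.10 in young mice and by 0.58, 0.53 and 0.47 in old mice.

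**Figure D4:**
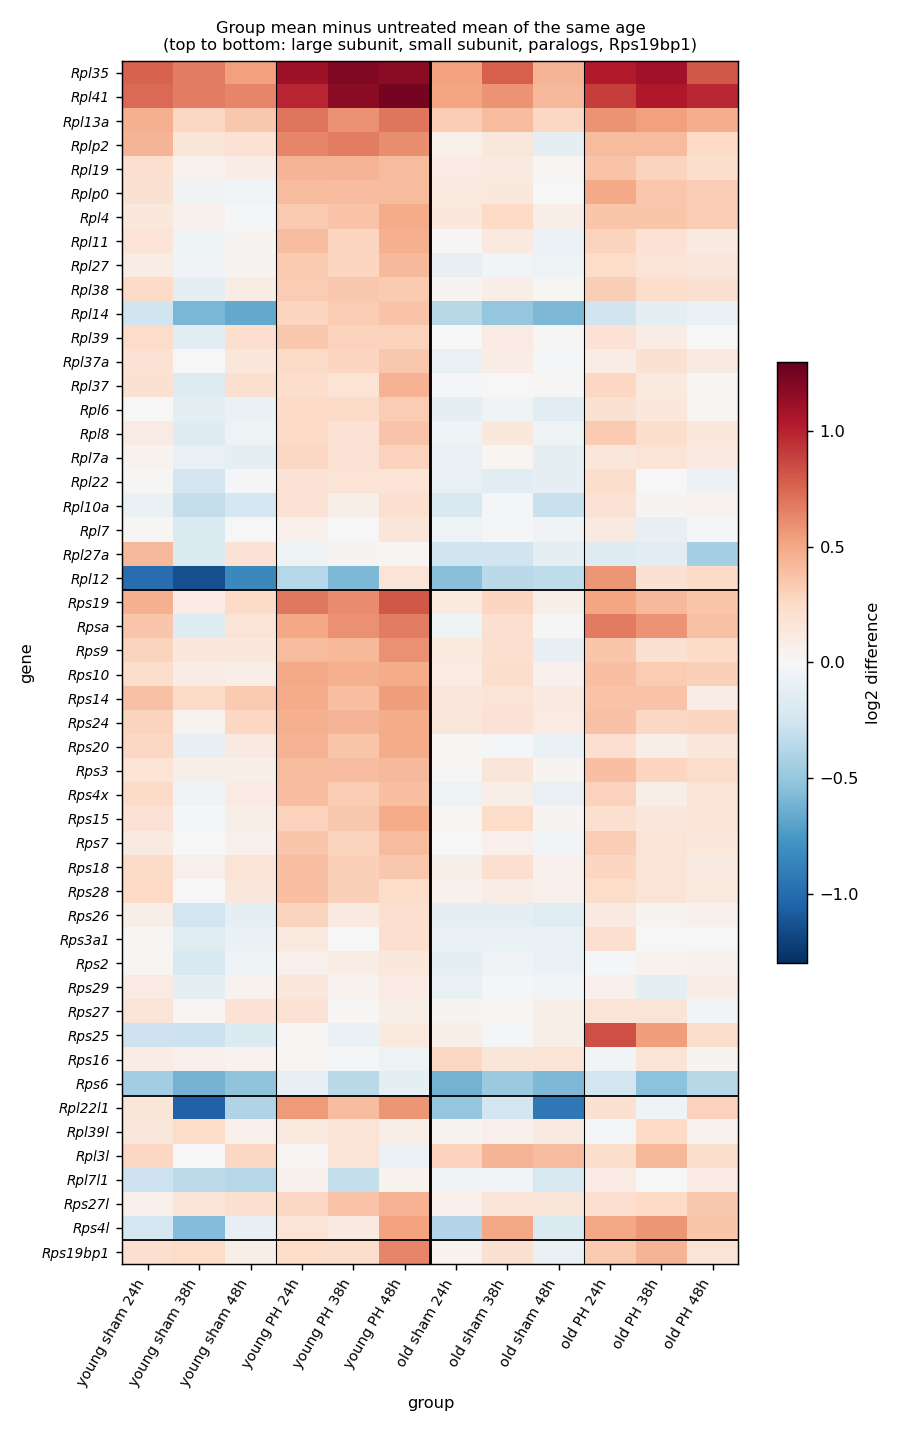
Group mean minus the untreated mean of the same age (colour, log2 difference from -1.3 to 1.3) for the 50 genes (y axis, by subunit and class) in the 12 sham and PH groups (x axis). Most genes are pale after sham and red after PH. Rpl35 and Rpl41 are also red after sham, Rpl12, Rpl14 and Rps6 are blue after sham, and the single young sham group at 38 h is pale or blue for many genes.

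Sham surgery was set against untreated livers with the 3 times averaged. The median difference of the members was 0.08 in young and 0.03 in old mice. In young mice 4 rose and 5 fell, against 16.5% and 17.1% of all genes, and in old mice 4 rose and 3 fell, against 15.7% and 12.6%. After repeated quantile normalization the young split was 12 higher and 3 lower, and the share of higher calls among all genes moved from 49.1% to 63.4% in young and from 55.5% to 67.7% in old mice. The old count was 4 in all without old untreated replicate 1.

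On the probe sets used, Rpl35, Rpl41 and Rpl13a rose with sham surgery at both ages. Rpl35 rose by 0.66 ± 0.10 in young and 0.58 ± 0.10 in old mice, Rpl41 by 0.68 ± 0.10 and 0.51 ± 0.10, and Rpl13a by 0.36 ± 0.09 and 0.33 ± 0.09. On the dim probe set of Rpl41 without a suffix the values were 0.04 and 0.25, and neither passed. The 18S signal moved with this comparison and its part was not tested. Rplp2 also rose in young mice (0.26 ± 0.08) and Rpl3l in old mice (0.38 ± 0.10), a call lost without old untreated replicate 1.

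Rpl14 fell by 0.50 ± 0.15 in young and 0.48 ± 0.15 in old mice after sham, Rps6 by 0.53 ± 0.07 and 0.56 ± 0.07, and Rpl22l1 by 0.43 ± 0.12 and 0.55 ± 0.12. The young calls of Rpl14 and Rpl22l1 were lost without young untreated replicate 2, and the old call of Rpl14 without old untreated replicate 1 or 2. In young mice Rpl12 fell by 0.99 ± 0.17 and Rpl7l1 by 0.32 ± 0.11. Rpl14 stood at 6.39 to 6.59 in young untreated livers, 5.70 to 6.23 after sham and 6.57 to 7.02 after PH, so its level after PH was close to or above the untreated one while the sham level lay below both. Rpl12 stood at 8.15 to 8.68 in young untreated livers and at 7.25 to 8.77 after PH, and its PH level was below untreated at 38 h by 0.59 ± 0.18 (limma adjusted p = 0.0158). For these dim probe sets, the difference of PH from sham therefore includes a lower level after sham than in untreated livers. The same applies to Rpl22l1, which was read by a bright probe set. In old mice Rpl22l1 was 11.83 to 12.04 untreated and 11.82 to 12.36 after PH, ranges that overlap. In young mice it was 11.42 to 11.86 untreated and 11.86 to 12.34 after PH. Rps6 was 8.82 to 8.88 untreated, 8.23 to 8.44 after sham and 8.47 to 8.88 after PH in young mice, and it also fell against untreated livers at 38 h in young mice (by 0.35 ± 0.08) and at all 3 times in old mice.

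Old and young livers were compared directly. In untreated livers 0 members passed, with a median difference of 0.13 in favour of old mice, and 0.236% of all genes were called. At an unadjusted p under 0.05 there were 8 members, against 10.5% of all genes. After PH, Rps25 was higher in old mice at 24 h, by 0.64 ± 0.17 (limma adjusted p = 0.0245), against 7.39% of all genes called. The 3 old arrays were at 9.10, 8.69 and 8.50 and the 3 young ones at 8.13, 8.09 and 8.15, without overlap. The call was lost when any one of young replicates 1 to 3 or old replicates 1 and 2 was left out, and 4 members passed without old replicate 3. At 38 h 0 passed (2.01% of all genes), with 3 at an unadjusted p under 0.05 against 17.2%. At 48 h 0 passed (0.0824%), with 4 unadjusted against 7.11%, and 8 of the 50 members had the higher value in old mice, with a median of -0.09.

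The difference between the ages in the response to PH, old minus young relative to their own shams, was tested at each time. At 24 h 0 members passed and 0% of all genes, with 2 members at an unadjusted p under 0.05 against 9.22%, and the median was 0.12. At 48 h 0 passed and again 0% of all genes, with 1 unadjusted against 2.08%, and the median was -0.13. At 38 h 1 of 50 passed, Rpl22l1, against 0.0879% of all genes. Its response was smaller in old mice by 1.27 ± 0.24 log2 units (limma adjusted p = 0.0418). The single young sham array was at 10.56 and the 3 young PH arrays at 11.86, 12.16 and 12.02, while the old sham arrays were at 11.45 and 11.95 and the old PH arrays at 11.96, 11.82 and 11.85. The call was lost when any one of 4 arrays taken at 38 h was left out: old sham replicate 2, young PH replicate 2, young PH replicate 3 or old PH replicate 3.

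Among the other paralogs, Rps4l rose by 0.57 ± 0.16 in young and 0.50 ± 0.14 in old mice in PH against sham (limma adjusted p = 0.00857 and 0.00994), and its old arrays spread widely, from 8.46 to 9.71 after sham and from 9.07 to 10.10 after PH. With both outlying old PH arrays removed its old value was 0.34. The old call was lost from the groups compared alone (limma adjusted p = 0.0839) and without old sham 48 h replicate 2 (0.37, limma adjusted p = 0.0675). Rps27l, the p53-inducible paralog of Rps27, rose by 0.22 ± 0.06 in young mice (limma adjusted p = 0.0137), with 0.14 ± 0.06 in old mice (adjusted p = 0.0675, limma). Against untreated livers Rps27l rose by 0.45 ± 0.09 in young and 0.35 ± 0.09 in old mice at 48 h. Rpl7l1 rose by 0.25 ± 0.08 in young mice and stood at 0.16 ± 0.08 in old mice. Its young call was lost without replicate 1 of the young sham arrays at 24 or 48 h. The 3 probe sets of Rpl7l1 disagreed. The one with a mean of 9.52 gave 0.30 ± 0.06 in young and 0.27 ± 0.05 in old mice. It passed at both ages (adjusted p = 0.000342 and 0.000326, limma over all probe sets). The one with a mean of 8.44 gave 0.09 and 0.12 and passed at neither age. Rps19bp1 rose by 0.20 ± 0.07 in young and 0.27 ± 0.06 in old mice, and the old call held in 15 of 15 fits that left out 1 array. The young call held in 4 of 13, and was lost without any one of the young sham arrays at 24 or 48 h, young PH replicates 1 and 3 at 24 and 48 h or young PH 38 h replicate 3. It rose by 0.56 ± 0.11 against sham at 48 h in young mice.

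The bright members kept together across arrays. For the 37 members with a mean of 11 or more, the median pairwise correlation over the 35 arrays was 0.78, and 0.72 for deviations from the group means, so members also varied together between arrays of 1 group. The points share arrays and their normalization. For the 13 dimmer members the medians were 0.09 and 0.03. Rps19 (0.98), Rpl19 (0.97) and Rps10 (0.95) followed the mean of the bright members most closely, and Rps16 (-0.25), Rpl27a (-0.11) and Rps6 (0.06), all on dim probe sets, least. By group means, Rpl22l1, Rpl12, Rpl35, Rpl41 and Rps4l had the widest ranges, from 1.66 down to 1.09, and Rps27, Rps16, Rps29, Rpl39l and Rps2 the narrowest, from 0.31 to 0.34. The highest group was old PH 24 h for 21 members and young PH 48 h for 15. The old PH 24 h means include replicate 1, an array that stands apart from its group. Its mean difference from untreated over all members was 0.40, against 0.25 and 0.20 for replicates 2 and 3.

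Probe sets that list several genes, and so stand for no single gene here, hold the other 31 symbols. Of 110 such probe sets with a ribosomal protein symbol, 73 were called higher and 1 lower in young PH against sham, with a median of 0.26, and 49 higher and 3 lower in old mice, with a median of 0.17. Of all 45037 probe sets 10.6% were called higher and 12.7% lower in young mice, and 11.5% and 10.9% in old mice. Of the 78 with a mean of 11 or more, 66 and 43 were called higher and 0 lower.

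Ribosomal proteins are one part of the machinery, and the other parts were read from lists. In PH against sham over the 3 times, 2765 of all 18193 genes were called higher and 2354 lower in young mice. In old mice 2985 were called higher and 2442 lower. Of 38 ribosome biogenesis factors, the nucleolar proteins that process rRNA and assemble subunits, 23 rose and 0 fell in young PH against sham and 29 and 0 in old. Nop58, a core protein of the box C/D particles that methylate rRNA, rose by 1.12 ± 0.18 and 1.08 ± 0.17, and Nhp2, of the box H/ACA particles, by 1.08 ± 0.18 and 1.17 ± 0.17. Of 15 genes of RNA polymerase I and its factors, 6 rose in young and 8 in old mice, among them Rrn3, the initiation factor of rRNA transcription (0.36 ± 0.10 and 0.38 ± 0.10). Of 26 translation initiation factors 15 rose and 2 fell in young and 17 and 2 in old mice. Eif4e, which binds the mRNA cap, rose by 0.76 ± 0.12 and 0.75 ± 0.11, and Eif6, which keeps free large subunits apart, by 0.62 ± 0.21 and 0.99 ± 0.20. Eif4a2 fell by 0.68 ± 0.08 in old mice (limma adjusted p = 2.08e-06). Of 11 elongation factors and other genes with TOP mRNAs 5 and 3 rose, led by Nap1l1, a histone chaperone (0.83 ± 0.10 and 0.65 ± 0.09). That is 45.5% and 27.3% called, against 28.1% and 29.8% of all genes called in either direction. Among 22 regulators of ribosome synthesis 3 rose and 2 fell in young and 4 rose and 4 fell in old mice. These are 22.7% and 36.4% called in either direction, near the 28.1% and 29.8% of all genes. Myc rose by 0.66 ± 0.22 and 0.85 ± 0.20, and Mxd4, an antagonist of Myc, fell by 0.58 ± 0.10 and 0.40 ± 0.09. Sesn1 fell by 0.54 ± 0.09 and 0.55 ± 0.08. Rheb rose by 0.28 ± 0.09 in young mice, and Deptor fell by 1.02 ± 0.20 in old mice.

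Mitochondrial ribosomal protein genes, which serve the separate ribosome of mitochondria, were read as another list. Of 76, 40 rose and 0 fell in young mice and 29 rose and 3 fell in old mice, with medians of 0.24 and 0.14. In either direction 52.6% and 42.1% were called, against 28.1% and 29.8% of all genes. Mrps6 rose by 1.23 ± 0.08 and 0.94 ± 0.07, and Mrpl14 fell by 0.50 ± 0.16 in old mice. The difference of these shares from those of the cytosolic members was not tested.

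The same lists were read in sham against untreated livers. There 13 of 38 biogenesis factors fell in young and 9 in old mice and 0 rose, and 13 and 7 of 26 initiation factors fell and 0 rose. Of the 50 cytosolic ribosomal protein genes, 4 rose and 5 fell in young mice, and 4 rose and 3 fell in old mice. Of all 18193 genes, 3007 were called higher and 3114 lower in young mice, and 2862 and 2299 in old mice. Rrs1, needed for assembly of the large subunit, fell by 1.18 ± 0.12 and Tsr1, of the small subunit, by 1.01 ± 0.20 in young mice after sham, and they rose by 0.91 ± 0.09 and 0.94 ± 0.15 in PH against sham. Both comparisons share the sham arrays, so these values are not independent.

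**Figure D5:**
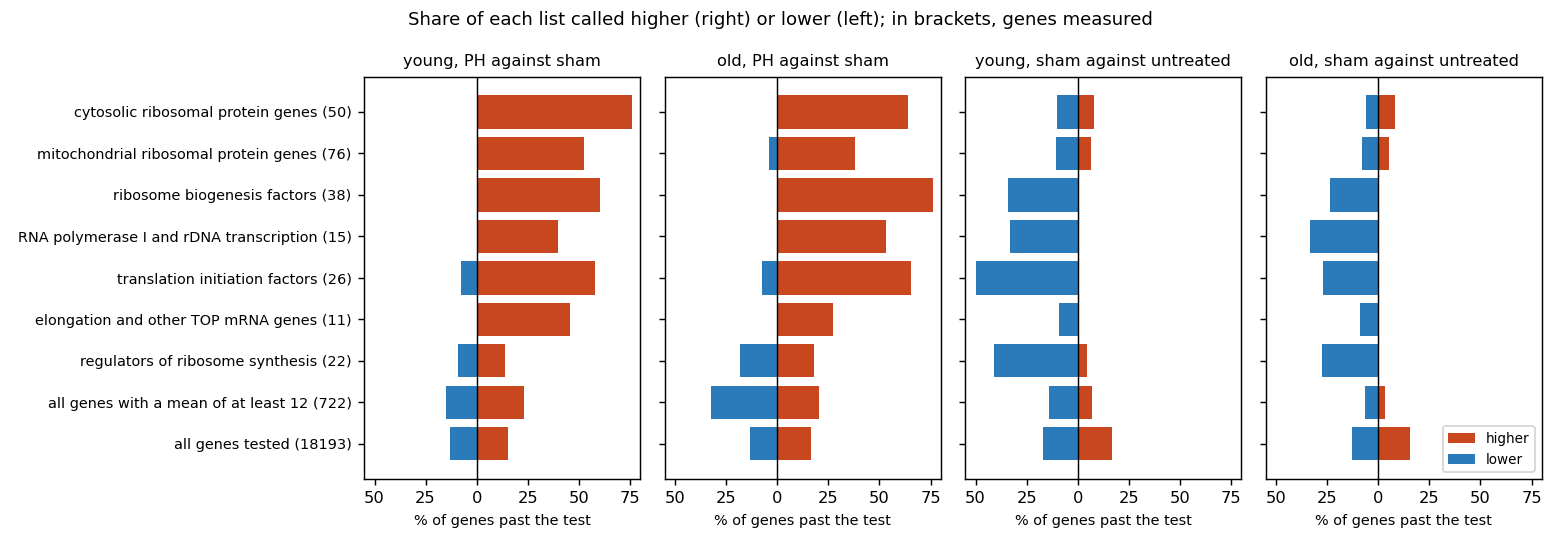
Percent of the genes of each list called higher (red, to the right) or lower (blue, to the left) in 4 comparisons (panels), with the number of genes measured in brackets; PH against sham is the mean over 24, 38 and 48 h. The cytosolic ribosomal protein genes reach 76% higher in young and 64% in old mice in PH against sham, and stay at or under 10% in either direction in sham against untreated.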

How the data were processed

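The authors deposited RMA values on the log2 scale for 45101 probe sets on 35 arrays, per the submitters' processing notes, which name RMA without a version. Whether all arrays were normalized together is not given in the sources used here. No scan dates were used, and arrays have no read depth, so their number limits the precision. Platform annotation gave 34945 probe sets 1 gene symbol and 932 several. For each gene the single-symbol probe set with the highest mean was used (18193 genes). Group means were fitted with limma 3.58.1 in R 4.3.3 (lmFit and eBayes, 21 residual and 3.29 prior degrees of freedom), with Benjamini-Hochberg adjustment in each of 23 contrasts and a threshold of 0.05. Errors marked SE come from this fit. The fit was tested on simulated data.

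Named genes are the up to 6 members with the largest differences per contrast, a panel, the 5 with the widest and the 5 with the narrowest range, and up to 4 genes of each other list. A few more members are named as examples. Members and lists were chosen with earlier results of these data known. Marker lists of other cells were also read; in PH against sham, called higher and lower in young and then old mice, were 1 and 1, 2 and 2 of 5 endothelial, 1 and 0, 2 and 0 of 5 stellate, 0 and 0, 1 and 0 of 4 cholangiocyte, 0 and 0, 0 and 0 of 4 T or NK cell, 0 and 1, 0 and 2 of 3 B cell, 0 and 1, 0 and 1 of 3 erythroid, 1 and 0, 1 and 0 of 2 adipose and 0 and 0, 0 and 2 of 4 striated muscle genes. Alternatives were other probe sets, a filter at 6, scaling, the variance prior, a replicate block, fewer groups and each array left out. Figures used matplotlib 3.10.9 in Python 3.11.15.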

Additional observations from a re-analysis of the deposited data

Results flagged for a closer look

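The response of Rpl22l1 to PH at 38 h was smaller in old than in young mice by 1.27 log2 units (value -1.27 for old minus young). It stands here because a test of the difference between the ages itself, an interaction term in limma, passed at an adjusted p of 0.0418. The young response at 38 h was 1.45 ± 0.19, and the old one was 0.18 ± 0.15 (limma adjusted p = 0.531). The young sham value comes from 1 array, at 10.56, which is the lowest of the 35 arrays for this gene, and the part of that array could not be checked by leaving it out. No group held 4 or more arrays, so single arrays were not screened for outlying values.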

How the results depend on the processing

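Counts are members called in either direction. With probe sets without a suffix (27 members tested) PH against sham gave 5 at 38 h and 12 at 48 h in young and 8, 0 and 3 at 24, 38 and 48 h in old mice, and over all times 17 and 11. Against untreated the counts were 9, 14 and 12 in young and 11, 13 and 6 in old mice, and old against young PH gave 2 at 24 h and 1 at 38 h. The age difference at 38 h gave 0. Rpl22l1, the member called there, has no probe set without a suffix, so this setting cannot check its call. Under the same setting Rpl35 turned to a dim probe set and reversed in young PH against sham (-0.10 at 38 h, -0.37 at 48 h and -0.26 over all times), in old at 48 h (-0.36), and against untreated (-0.20, -0.22 and -0.22 in young and -0.091 in old at 48 h), and Rpl41 in old PH against sham at 48 h (-0.031). Fitted on the groups compared alone, PH against sham gave 2 at 24 h and 2 at 38 h in young, and 0, 0 and 14 in old mice and 15 over all times. Old PH against untreated then gave 4 at 24 h and 2 at 38 h, and old against young PH 24 h and the age difference at 38 h both 0. Without the 2 outlying arrays (chosen after seeing the data) PH against sham gave 2 and 23 at 24 and 38 h in young and 10, 2 and 16 in old mice, old PH 38 h against untreated 14, and old against young PH 48 h 1. Centring gave 7 in young at 38 h and 11 in old at 24 h. Repeated quantile normalization gave 6 and 3 at 38 h in young and old PH against sham, 17 in old PH 48 h against untreated, 15 in young sham against untreated and 0 in the age difference at 38 h. The mean of all probe sets gave 2 in old PH against sham at 38 h, 15 in young sham against untreated and 2 in old against young PH 24 h. Replicate numbers did not pair the arrays: same-numbered arrays' deviations from group means correlated at r from -0.76 to 0.45, with medians from -0.031 to 0.07. With the replicate block the counts over all times were 38 in young and 28 in old mice and 0 in the age difference at 38 h.

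Leaving out each array in turn gave these ranges. PH against sham ran from 5 to 11 at 38 h and 15 to 28 at 48 h in young, and from 3 to 27, 0 to 4 and 1 to 4 in old mice. Over all times it ran from 36 to 39 in young and 22 to 36 in old mice. Old PH against untreated ran from 12 to 31, 11 to 25 and 5 to 13, old sham against untreated from 4 to 9, old against young PH 24 h from 0 to 4 and the age difference at 38 h from 0 to 1. The values for single genes and medians, counted once for each setting, gave 1610 that stayed the same, 119 that no longer passed, 22 that moved and 9 that reversed. A gene stayed the same if it kept its direction and side of the threshold. A median stayed the same if it lay within 0.078 of its main value, whatever its sign, and otherwise moved. Arrays have no depth, and the dim probe sets of 13 members lie closest to background.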
